A study of Homo sapiens with 12 samples.

Results

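Imprinted differentially methylated regions are described here in 2 cell lines of clear cell renal carcinoma, called 769 and 786 in the labels. Such a region was taken as every CCGG site inside 13 fixed hg19 intervals at 12 imprinted genes. The rule uses no measured value, though earlier results of these data were known when it was chosen. The genes are H19, KCNQ1OT1, SNRPN, MEG3, GNAS (2 intervals, called upstream and downstream here), PEG3, MEST, PEG10, PLAGL1, DIRAS3, NNAT and GRB10. The intervals held 292 CCGG sites with a tag in any library, out of 996035 on chromosomes 1 to 22 and X. HELP-tagging was used, in which genomic DNA is cut with a restriction enzyme and a short sequence tag beside each cut site is counted. DNA came from 1 control and 2 AA-treated samples of each line, and portions of it were cut with HpaII and with MspI, giving 12 libraries from 6 DNA samples. AA is read here as the ascorbic acid of the series title, a cofactor of the TET dioxygenases that oxidise 5-methylcytosine. The labels do not say whether the 2 AA samples of a line differ in culture, dose or time, so each SD and p-value covers the spread between these samples, which may be technical.

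At an imprinted locus the parental alleles carry different cytosine methylation, laid down in the germ line and kept in most body cells, and genes nearby are transcribed from a single allele. Most such regions, those of SNRPN, KCNQ1OT1, MEST, PEG3, PEG10, PLAGL1, NNAT, GRB10 and DIRAS3 among them, are methylated on the maternal allele, whereas those upstream of H19 and at MEG3 are methylated on the paternal one. The GNAS locus holds regions of both kinds. MspI cuts CCGG whatever the state of the inner cytosine, while HpaII is blocked when that cytosine is methylated or hydroxymethylated, so HpaII tags set against MspI tags read unmodified sites. Tags carry no allele here, and neither a change of allele number nor the modification of a single allele can be told apart from a change on both.

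HpaII tags in the 13 regions numbered 3342, 2610 and 1452 in the 769 control, AA replicate 1 and AA replicate 2, and 75, 4105 and 1762 in the same samples of 786. MspI tags there numbered between 1525 and 4860 per DNA sample. The 786 control HpaII library was by far the shallowest, with 160231 tags on these chromosomes against 2662391 to 9618660 in the other 5, so every AA comparison within 786 rests on very few control tags. The level given below is the HpaII/MspI ratio, the share of a sample's HpaII tags that fell in a region divided by the share of its MspI tags. A value of 1 is the mean over the genome of that sample, and more means more unmodified CCGG than that mean. A gain or loss shared by the whole genome of a sample is scaled out, in the ratios and in the fits below, and cannot be seen. Intervals are exact (Clopper-Pearson) 95% intervals and cover counting error only, since PCR tags without molecular identifiers are not independent molecules.

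Promoter sequences are shown for 5 starts, 1 in each of 5 regions, whose CCGG sites could be tied to sites counted there, since those sites are what the assay could read at a start of transcription. Of 30 RefSeq promoters of the genes, 20 (66.7%) held the palindromic motif CCGG, against 63.1% of all 35116 promoters in the table. KCNQ1OT1, PEG3, PEG10 and NNAT had no entry. The files use hg19 and the promoters GRCh38.p14, so sites were paired by the spacing between neighbouring CCGG sites within the gene's own interval, and no coordinate was converted. Each sequence runs 5′ to 3′ on the gene's strand from 250 bases before the start to 30 after it, with CCGG in capitals. The PLAGL1 promoter (chr6:144008230-144008509, minus strand) matched 3 of 3 sites, the GNAS upstream promoter (chr20:58839498-58839777, plus strand) 4 of 4 and the GNAS downstream promoter (chr20:58888930-58889209, plus strand) 6 of 7, with no second place of the same spacing on the chromosome. The last matched site of each GNAS promoter, 31 and 42 bases after the start, lies just beyond the printed stretch. A further GNAS upstream start, at chr20:58841370-58841649, tied equally well and is not shown. The SNRPN promoter (chr15:24954737-24955016, plus strand) and the MEG3 promoter (chr14:100825858-100826137, plus strand) each matched 2 of 2, a spacing that also occurs at 32 and 24 other places on their chromosomes.
SNRPN: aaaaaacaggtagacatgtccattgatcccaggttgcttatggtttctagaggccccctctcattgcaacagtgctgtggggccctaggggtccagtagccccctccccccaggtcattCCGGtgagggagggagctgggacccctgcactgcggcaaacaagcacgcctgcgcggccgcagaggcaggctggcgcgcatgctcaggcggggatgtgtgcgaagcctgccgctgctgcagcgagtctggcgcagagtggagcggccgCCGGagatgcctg
PLAGL1: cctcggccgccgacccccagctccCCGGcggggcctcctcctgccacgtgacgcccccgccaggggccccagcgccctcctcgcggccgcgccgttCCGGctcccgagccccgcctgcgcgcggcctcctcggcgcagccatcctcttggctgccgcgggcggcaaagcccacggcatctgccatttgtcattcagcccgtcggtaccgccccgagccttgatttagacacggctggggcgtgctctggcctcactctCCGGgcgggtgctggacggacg
GNAS upstream: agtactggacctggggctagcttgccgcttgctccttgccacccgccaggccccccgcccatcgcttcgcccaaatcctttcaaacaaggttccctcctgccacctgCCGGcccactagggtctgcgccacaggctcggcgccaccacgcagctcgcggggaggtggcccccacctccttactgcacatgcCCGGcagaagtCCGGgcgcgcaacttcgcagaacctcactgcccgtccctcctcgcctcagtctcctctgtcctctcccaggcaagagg
GNAS downstream: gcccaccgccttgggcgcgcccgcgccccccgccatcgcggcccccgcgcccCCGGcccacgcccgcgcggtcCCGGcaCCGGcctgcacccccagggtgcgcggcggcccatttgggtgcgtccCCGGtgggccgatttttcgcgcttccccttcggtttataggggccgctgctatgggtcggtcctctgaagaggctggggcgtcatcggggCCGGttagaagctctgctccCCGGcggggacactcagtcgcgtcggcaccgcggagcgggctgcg
MEG3: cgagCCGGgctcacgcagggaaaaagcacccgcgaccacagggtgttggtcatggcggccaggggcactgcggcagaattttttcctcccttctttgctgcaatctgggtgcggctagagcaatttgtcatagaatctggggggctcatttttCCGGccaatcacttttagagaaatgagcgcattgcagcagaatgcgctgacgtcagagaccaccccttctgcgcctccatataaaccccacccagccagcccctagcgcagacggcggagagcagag

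The 13 regions spread from no HpaII tag at all to ratios above 10. As a yardstick, 10077 windows of 5 kb with at least 20 reference CCGG sites and at least 10 MspI tags in every MspI library were read the same way. SNRPN, PEG3, PEG10, PLAGL1, DIRAS3 and NNAT themselves held fewer than 20 reference CCGG sites. For those regions the windows are not matched in number of sites. The median ratio over the regions was 0.977, 0.803 and 1.10 in the 769 control, AA replicate 1 and AA replicate 2, where these CCGG-dense windows had medians of 1.19, 1.50 and 1.23. In 786 it was 0.636, 0.942 and 1.13, against 0.732, 1.27 and 1.37. The regions' median was thus below that of the dense windows in 6 of 6 DNA samples. By the mean of a line's samples, 8 of 13 regions in 769 and 9 of 13 in 786 lay below the dense windows' median. That median rose with the cut of reference sites, from 0.711 at 10 through 1.57 at 20 to 2.14 at 40 in 769. In 786 it rose from 0.943 through 1.39 to 1.64. At the cuts of 10 and 40, 5 and 10 of 13 regions lay below it in 769, and 7 and 10 in 786. At single sites with at least 5 MspI tags, the share that also had an HpaII tag was 26.9%, 60.6% and 34.7% in 769 and 11.0%, 55.4% and 54.1% in 786. It was 30.7%, 58.5% and 38.0%, and 9.58%, 51.7% and 51.5%, in the dense windows, and by this measure the regions were above them in 4 of 6 samples.

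**Figure D1:**
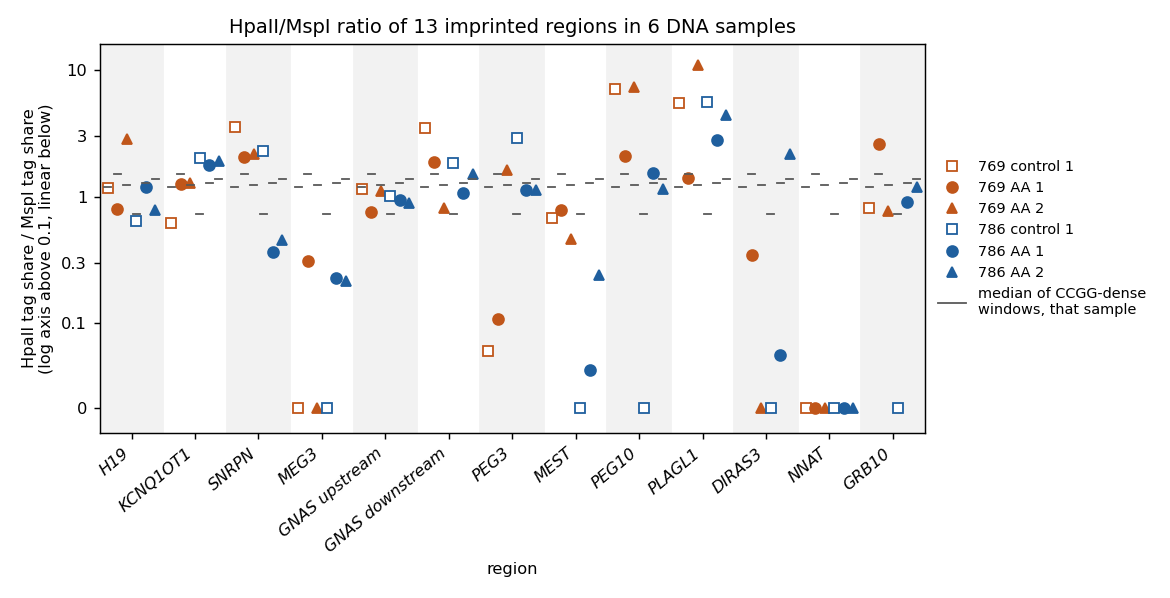
HpaII/MspI ratio (y axis, ratio of tag shares, logarithmic above 0.1 and linear below) of each region (x axis) in the 6 DNA samples, orange for 769 and blue for 786, with open squares for controls, circles for AA replicate 1, triangles for AA replicate 2 and short grey bars for the median of the CCGG-dense windows in that sample. PLAGL1 and, in 769, PEG10 sit highest in every sample but 769 AA replicate 1, where GRB10 does at 2.59, and NNAT is at 0 in all 6 samples.

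Placed among the dense windows of the same sample, KCNQ1OT1 and the GNAS upstream region lay between the lower and upper quartile in all 6 DNA samples. The GNAS upstream region lay between percentiles 35.7 and 55.7 and KCNQ1OT1 between 41.2 and 72.4. The distance from a window's lowest to its highest percentile had a lower quartile of 23.8 and a median of 37.0 over the dense windows, which are shorter than the GNAS upstream region. GRB10 also counts among them, but its 0 in the 786 control equals the lower quartile of that shallow sample. Of the dense windows, 11.6% lay between the quartiles in all 6 samples. H19 and the GNAS downstream region did so in 5 samples, and each lay above the upper quartile in the sixth. NNAT lay at percentile 0, MEG3 at or under percentile 25.8 and PLAGL1 above the upper quartile in 5 of 6 samples. The percentile counts windows with a lower ratio, so a region without an HpaII tag is at 0, level with every window without one. Such windows made up 19.7%, 2.58% and 16.1% of the dense windows in the 769 control, AA replicate 1 and AA replicate 2. In 786 they made up 37.3%, 11.1% and 10.6%. NNAT and PLAGL1 held fewer reference CCGG sites than the 20 required of a dense window.

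**Figure D2:**
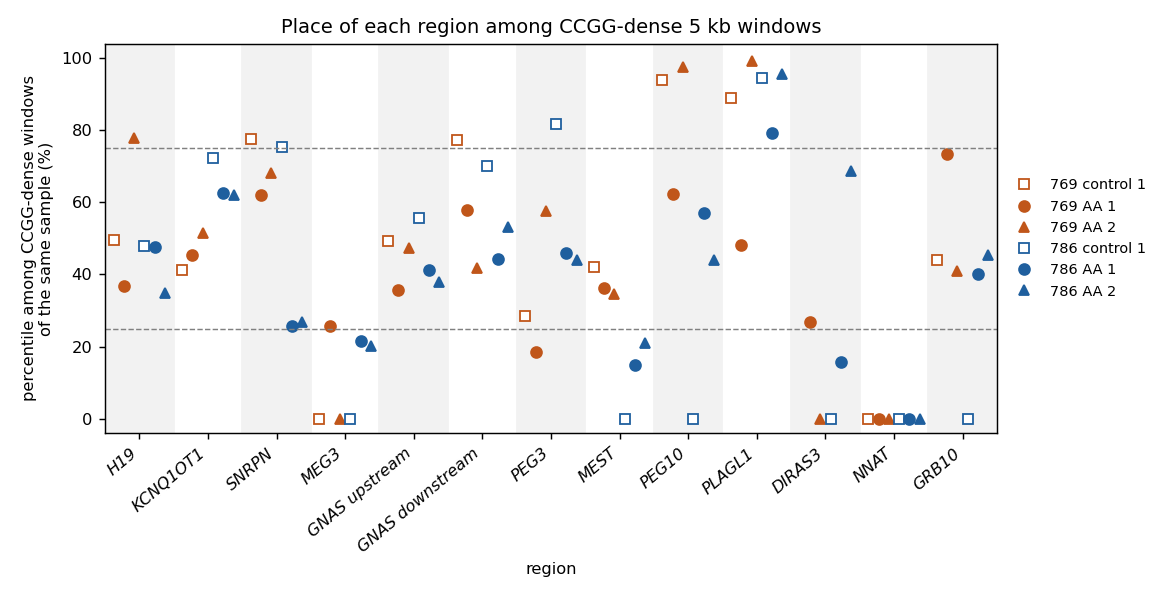
Percentile of each region's HpaII/MspI ratio among the 10077 CCGG-dense windows of the same DNA sample (y axis, percent) for the 13 regions (x axis), with markers as in the plot of ratios and dashed lines at the quartiles. The 6 samples of the GNAS upstream region fall between 35.7 and 55.7, whereas those of PEG10 run from 0 to 97.6. The 0 is the 786 control, level with the 37.3% of dense windows that had no HpaII tag in that sample.

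The 3 regions at genes for long noncoding RNAs differed from each other. H19 makes a maternally expressed RNA, and its region (chr11:2018000-2025000, 28 sites) reaches over the upstream element where CTCF insulates IGF2 on the unmethylated allele. Its ratio was 1.16, 0.803 and 2.83 in the 769 control, AA replicate 1 and AA replicate 2. In 786 the same samples gave 0.636, 1.18 and 0.787, the first from 3 HpaII tags (interval 0.130 to 1.88). The lines overlapped, and 769 AA replicate 2 was the highest of the 6. In the 769 control a single site, at 2019713, held 127 tags, which was 70.9% of the region's HpaII tags, while in AA replicate 1 tags were spread over 16 sites.

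KCNQ1OT1 is transcribed across KCNQ1 from the paternal allele and silences neighbours such as CDKN1C. Its region (chr11:2719000-2723000, 28 sites) had ratios of 0.621, 1.26 and 1.29 in the 769 control, AA replicate 1 and AA replicate 2. The corresponding ratios in 786 were 2.03, 1.77 and 1.89. The lowest sample of 786 was above the highest of 769, and within 769 both AA samples were above the control. The 786 control value came from 9 HpaII tags, with an interval of 0.918 to 3.93. The site at 2721033 held 63.6% of the HpaII tags of the 769 control.

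MEG3 makes a maternally expressed RNA with growth-suppressing activity, and its region (chr14:101290000-101295000, 18 sites) was almost without HpaII tags. No tag was found in the 769 control, in 769 AA replicate 2 or in the 786 control. The ratio was 0.307 (16 tags) in 769 AA replicate 1, 0.228 (46 tags) in 786 AA replicate 1 and 0.216 (6 tags) in 786 AA replicate 2. A count of 3 tags would have given ratios of 0.115, 0.0738 and 2.51 in the 3 samples at 0, so the 786 control could not have shown a level like that of the AA samples. Only 5 of the 18 sites had an HpaII tag in any library, and the 6 sites of the first kb had none against 46 MspI tags in 769 and 98 in 786. In the promoter shown above, the site 97 bases before the start had no HpaII tag in any sample. MspI tags there numbered 33, 8 and 0 in 769 and 2, 0 and 0 in 786, so most samples could not have shown an unmodified site. The other site there, 246 bases before the start, had 7 HpaII tags in 769 AA replicate 1 and 6 in 786 AA replicate 2.

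GNAS encodes the stimulatory G protein alpha subunit and, from other promoters, the proteins NESP55 and XLαs and an antisense RNA. The upstream region (chr20:57414000-57432000, 76 sites) covers the NESP55, antisense and XLαs starts. Its ratio was 1.14, 0.753 and 1.10 in the 769 samples and 1.01, 0.942 and 0.890 in those of 786, in the order control, AA replicate 1 and AA replicate 2. The lines overlapped, with means of 0.997 ± 0.212 in 769 and 0.948 ± 0.0610 in 786 (SD, n = 3 DNA samples each, 1 control and 2 AA). Single sites within it were far apart. The site at 57429448 had 1444 MspI tags over the 6 DNA samples and 1 HpaII tag, while the one at 57429236 had 673 MspI and 183 HpaII tags.

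The GNAS downstream region (chr20:57463000-57467000, 43 sites) runs from the alternative first exon A/B toward the main GNAS promoter. Its ratio was 3.48, 1.86 and 0.811 in 769 and 1.85, 1.06 and 1.51 in 786. All 4 AA samples were below the control of their line, and the 786 control value rested on 20 HpaII tags (interval 1.12 to 2.88). In 1 kb steps the ratio climbed along the interval in both lines, from 0 through 0.533, 1.23 and 2.94 in 769 and from 0 through 0.402, 1.32 and 2.58 in 786. The first kb had no HpaII tag in any of the 6 samples, against 40 MspI tags in 769 (none of them in the control) and 176 in 786. The last kb had the highest ratio of the 4 steps in each sample, at 4.45, 3.52 and 1.67 in 769 and 3.19, 1.86 and 3.28 in 786. The 769 control did not climb evenly, with 1.73 in the second kb and 0.951 in the third kb. In the GNAS downstream promoter shown above, the matched sites 35 and 15 bases before the start had no HpaII tag in any sample, while those 171 and 125 bases before it had up to 48 and 38 in a sample. MspI tags at the site 35 bases before the start were few in most samples, at 5, 0 and 0 in 769 and 26, 4 and 1 in 786. At the site 15 bases before it they numbered 0, 11 and 12 in 769 and 26, 62 and 10 in 786.

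**Figure D3:**
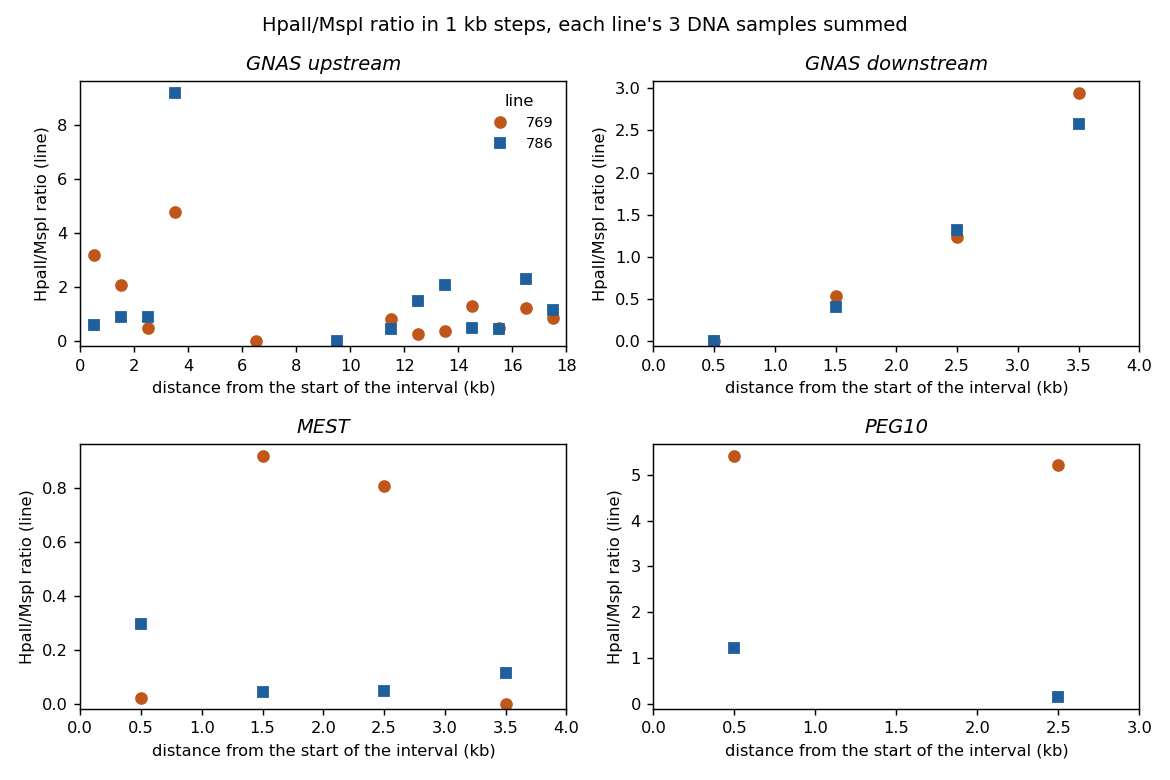
HpaII/MspI ratio (y axis, tags of a line's 3 DNA samples each scaled to its library total and summed) in 1 kb steps along 4 regions (x axis, distance from the start of the interval in kb), circles for 769 and squares for 786; steps without MspI tags are left out. In the GNAS downstream region both lines climb from 0 to above 2.5, whereas 769 is the higher line in PEG10 and in the middle steps of MEST.

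PEG3 and PLAGL1 encode zinc-finger proteins linked to growth control. The PEG3 region (chr19:57348000-57354000, 15 sites) had ratios of 0.0666, 0.108 and 1.62 in 769 and of 2.89, 1.12 and 1.13 in 786. The 769 control and AA replicate 1 were low, on 8 and 13 HpaII tags, while AA replicate 2 was within the range of 786. The 786 control had 5 tags, all at a single site, and an interval of 0.915 to 6.99. The site with most MspI tags, at 57352186, had 225 of them and 1 HpaII tag, whereas the site at 57351706 gave 63.8% of the HpaII tags of 786 AA replicate 1 and had 1 MspI tag in all.

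The PLAGL1 region (chr6:144328000-144330500, 13 sites) had the highest ratio of the 13 in each 786 sample. Its ratio was 5.44, 1.41 and 11.0 in 769 and 5.53, 2.78 and 4.41 in 786. It lay above the upper quartile of the dense windows in 5 of 6 samples, 769 AA replicate 1 being the exception. In the promoter shown above, the site 226 bases before the start had an HpaII tag in all 6 samples, with 48, 4 and 78 tags in 769 and 8, 145 and 6 in 786. The site 154 bases before the start had 132, 2 and 39 tags in 769 and 0, 33 and 14 in 786.

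SNRPN encodes a spliceosomal protein, and its region (chr15:25199000-25202000, 5 sites) holds the imprinting centre lost in some cases of Prader-Willi syndrome. The ratio was 3.51, 2.05 and 2.18 in 769 and 2.28, 0.368 and 0.457 in 786. The AA samples of 786 were below all 769 samples, while the 786 control, on 4 HpaII tags, had an interval of 0.609 to 6.05 that spans both. Which of the promoter's sites gave the tags changed between samples. The site 17 bases after the start, at 25200153, held all 237 HpaII tags of the 769 control and 95.1% of those of AA replicate 2, but 1 tag in AA replicate 1. The site 131 bases before the start, at 25200005, held 120 tags (78.4%) in that sample and 0 in the other 769 samples.

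MEST encodes a hydrolase-fold protein expressed from the paternal allele. In its region (chr7:130130000-130134000, 24 sites) the ratio was 0.680, 0.778 and 0.459 in 769, from 143, 172 and 87 HpaII tags. In 786 it was 0 in the control, where 751 MspI tags were found, and 0.0449 and 0.240 in the AA samples, from 19 and 48 tags. All 769 samples were above all 786 samples. In the 786 control a count of 3 tags would have given 0.208, so that sample alone could hold a level up to that size. Most of the difference lay at few sites: the one at 130132022 had 143 HpaII tags in the 769 control, all of that sample's, 115 in AA replicate 1 and 8 in AA replicate 2, against 0, 0 and 17 in 786. MspI tags at that site numbered 61 or more in every sample. In 769 AA replicate 2 the site at 130131485 held 90.8% of the tags instead. In 1 kb steps 769 was higher in the middle of the interval (0.920 and 0.810 against 0.0443 and 0.0483), and 786 was higher in the first and the last kb (0.296 and 0.115 against 0.0213 and 0). However, AA replicate 2 gave all 21 HpaII tags of 786 in the first kb and 8 of its 9 in the last.

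PEG10 is a protein-coding gene derived from a retrotransposon. Its region (chr7:94285000-94288000, 10 sites) had ratios of 7.12, 2.07 and 7.35 in 769, the last from 11 MspI tags. In 786 the ratios were 0, 1.54 and 1.14, and again all samples of 769 were above all of 786. The control of 786 had 0 HpaII and 136 MspI tags, for which 3 tags would have given 1.15. At the 5 sites of the first kb the ratio was 5.42 in 769 and 1.22 in 786, and at the 5 sites of the last kb it was 5.21 and 0.142. Of the 399 HpaII tags of 769 in the last kb, the control gave 371.

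**Figure D4:**
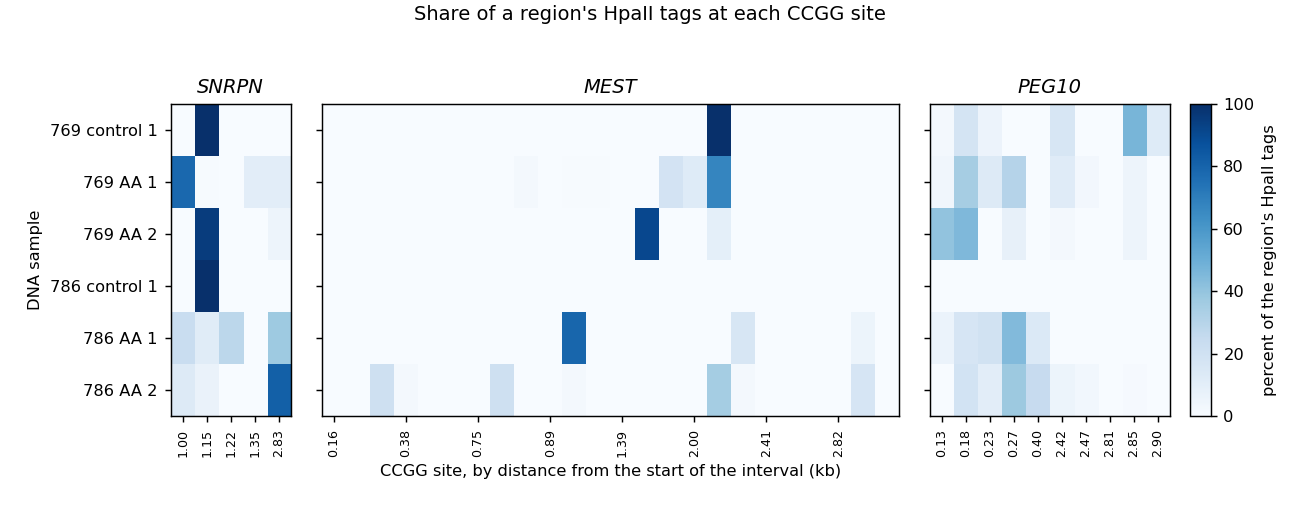
Percent of a region's HpaII tags that fell on each CCGG site (colour, from 0 to 100 percent) in SNRPN, MEST and PEG10, with the 6 DNA samples as rows and sites as columns in order of their distance from the start of the interval (kb). A single site holds 100% in the 769 control for SNRPN and for MEST, and the 786 control rows of MEST and PEG10 are blank because no HpaII tag was found there.

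GRB10 encodes an adaptor that dampens insulin receptor signalling. Its region (chr7:50848000-50852000, 18 sites) had ratios of 0.814, 2.59 and 0.773 in 769 and of 0, 0.905 and 1.19 in 786, the 0 from a sample in which 3 tags would have given 1.54. The highest sample was 769 AA replicate 1, where the site at 50850633 held 52.4% of the HpaII tags.

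NNAT and DIRAS3 remain. NNAT encodes neuronatin, a small membrane protein of brain and endocrine tissue, and its region (chr20:36148000-36151500, 10 sites) had no HpaII tag in any of the 6 samples against 125, 10 and 34 MspI tags in 769 and 99, 118 and 42 in 786. Ratios up to 0.0543, 0.242 and 0.115 in 769 and 1.57, 0.0150 and 0.118 in 786 would have gone unseen at 3 tags. The 20 kb on either side had ratios of 2.19, 3.25 and 2.63 in 769 and 4.43, 3.48 and 1.53 in 786, so the sequence around the region did give HpaII tags. DIRAS3 encodes a Ras-like growth suppressor, and its region (chr1:68511000-68518000, 4 sites) had too few tags for a level. The 769 control had no tag of either enzyme, and the other 5 samples had ratios of 0.344 and 0 in 769 and of 0, 0.0622 and 2.16 in 786.

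Over all 13 regions, 211 of 292 sites had an HpaII tag in at least 1 sample, and 7 had one in all 6. These were a pair in the GNAS upstream region (57415346 and 57429768), a pair in the GNAS downstream region (57466074 and 57466894) and 1 site each in PLAGL1 (144329621), KCNQ1OT1 (2720954) and SNRPN (25200153). They were picked out after their values were seen. Of 97 sites with at least 50 MspI tags over the 6 samples, 19 had no HpaII tag, and among all 229678 such sites on these chromosomes 37.1% had none. The sites of the whole chromosomes were not matched to those of the regions in CCGG density, so the 2 shares are not directly comparable. Those 19 lay in GNAS downstream (5 sites), GNAS upstream, MEG3 and NNAT (3 each), MEST and GRB10 (2 each) and H19 (1).

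The comparison of the lines asks whether HpaII tags relative to MspI differ between 786 and 769 at a region. Regions and the 5 kb windows of the rest of the genome were fitted together with edgeR's quasi-likelihood test over all 12 libraries, with Benjamini-Hochberg adjustment of p-values over all of them. NNAT (no HpaII tag) and DIRAS3 (too few MspI tags) could not be fitted, which left 11 regions. edgeR called 0 of 11 regions at an adjusted p under 0.05, where 1.41% of all 29873 features were called. MEST alone had an unadjusted p under 0.05 in edgeR, where 4485 of the 29873 features had one. In DESeq2 MEST, PEG10 and PEG3 had one, as did at least the 12.9% of all features called there at an adjusted p under 0.05. The mean ratios of MEST were 0.639 ± 0.163 in 769 and 0.0948 ± 0.127 in 786 (SD, n = 3 each). The log2 fold change of MEST was -3.12 ± 0.98 in edgeR, with unadjusted p = 0.00443 and adjusted p = 0.120. The error beside each edgeR value is the size of the fold change divided by the square root of its F statistic. It is an approximate standard error, not one estimated by the model. DESeq2 called MEST (log2 fold change -3.00 ± 1.02, SE of the model, adjusted p = 0.0319) as 1 of 11 regions, in a fit that called 12.9% of all features. Without the site that holds most HpaII tags of each region or window, the MEST value was -1.56 ± 1.41 in the edgeR fit, with adjusted p = 0.703.

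The next smallest p-values belonged to PEG10 (-2.68 ± 1.29, edgeR adjusted p = 0.335), lower in 786, and PEG3 (2.62 ± 1.62, edgeR adjusted p = 0.465), higher there. PEG3 was 0.15 ± 1.86 without the site that holds most HpaII tags, 1.31 ± 1.64 without the 769 control, 1.73 ± 1.71 without 769 AA replicate 1, 3.98 ± 1.45 without 769 AA replicate 2 and 1.46 ± 1.68 without the 786 control. PEG10 was -1.44 ± 1.11 without the 786 control, which had no HpaII tag, and -1.61 ± 1.41 without the 769 control. The fitted values were negative for 8 regions and positive for 3, with a median of -0.43 against 0.18 over all features. The ratios of the 6 samples did not overlap between lines in 3 of the 12 regions with a ratio in each sample, which were KCNQ1OT1, MEST and PEG10. In the dense windows 15.9% did not overlap. Among the 4 AA samples alone, 4 of 13 regions (the same 3 and SNRPN) did not overlap, against 41.4% of the dense windows.

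MspI tags, which do not depend on methylation, give the amount of DNA recovered. edgeR called 0 of 12 regions between the lines, 0.171% of 38566 features being called, and DESeq2 also called 0, with 0.959% of features called. None had an unadjusted p under 0.05 by either tool, while 3704 of the 38566 features had one in edgeR. The smallest p-values were those of PEG10 (0.93 ± 0.60, adjusted p = 0.655), MEST (0.45 ± 0.32, adjusted p = 0.696) and GNAS downstream (0.41 ± 0.30, adjusted p = 0.709), as log2 fold change of 786 over 769 in edgeR. At MEST and PEG10 the MspI estimates were therefore higher in 786 and the HpaII estimates relative to MspI lower. The part of copy number in either was not tested.

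**Figure D5:**
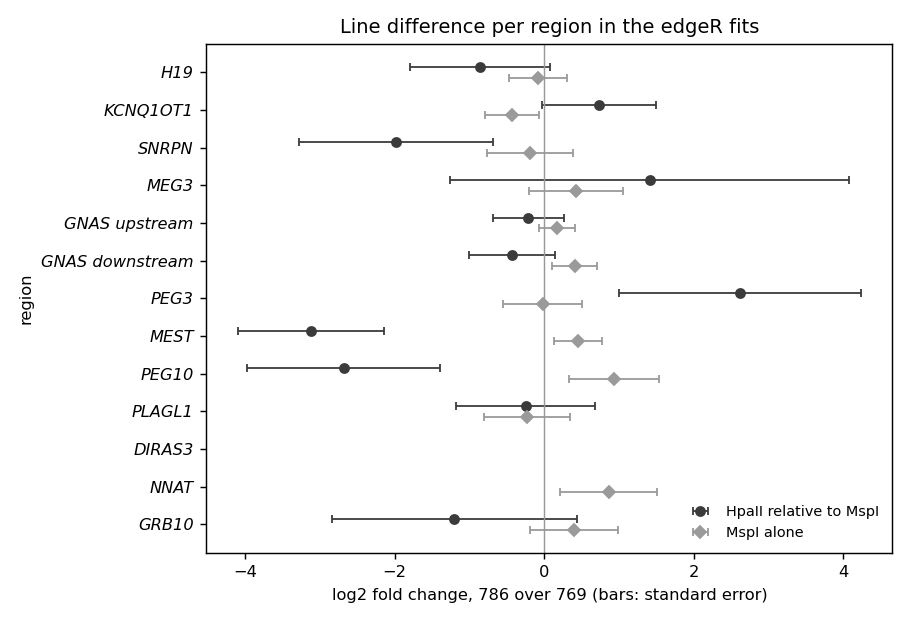
Log2 fold change of 786 over 769 (x axis) for each region (y axis) in the edgeR fits. Black circles are HpaII relative to MspI and grey diamonds MspI alone, with bars for the approximate standard error derived from the F statistic. MEST at -3.12 and PEG10 at -2.68 lie farthest to the left, and their MspI values are at 0.45 and 0.93; regions without a fit have no marker.

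AA against control, over both lines, addresses whether HpaII tags relative to MspI differed with treatment at these regions, on the scale of each library. It does not read the unmodified fraction itself. edgeR called 0 of 11 regions, none had an unadjusted p under 0.05, and 0.241% of all features were called. Of the 29873 features, 3464 had an unadjusted p under 0.05 in edgeR. DESeq2 called 0 as well, with none at an unadjusted p under 0.05 and 2.97% of features called. The GNAS downstream region had the smallest p, with a log2 fold change of -0.79 ± 0.61 (edgeR adjusted p = 0.629) and ratios under the line's control in 4 of 4 AA samples. GNAS upstream, with a fitted value of 0.02 ± 0.50 (edgeR adjusted p = 0.991), and SNRPN, at -1.28 ± 1.39 (edgeR adjusted p = 0.724), were also under the control in 4 of 4. These were 3 of the 12 regions with a ratio in each sample, and 9.33% of the dense windows were under the control in 4 of 4. Above the control in 4 of 4 were 0 of the 12 regions and 18.0% of the dense windows. GRB10 had 1.92 ± 1.86 (edgeR adjusted p = 0.691). MEG3, also among the 3 smallest p-values, had an adjusted p of 0.670 in edgeR; both of its controls had 0 tags, so its fitted fold is no measure of size. The regions' median was 0.71, and that of all features was 1.24, against which AA values are to be read. Among features with at least 3 HpaII tags in every HpaII library that median was 0.07, and the 7 regions left had a median of 0.01 with 0 called.

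Within 769, edgeR called 0 of 11 regions, with none at an unadjusted p under 0.05, against 1.47% of all features. DESeq2 called 0, with GNAS downstream alone at an unadjusted p under 0.05, against 11.6% of features called. At least that share of features had an unadjusted p under 0.05 in DESeq2. In edgeR 4478 of the 29873 features had an unadjusted p under 0.05. The smallest p-values were those of GNAS downstream (-1.35 ± 0.68, edgeR adjusted p = 0.373), PEG3 (2.81 ± 2.07, edgeR adjusted p = 0.554) and KCNQ1OT1 (1.19 ± 0.89, edgeR adjusted p = 0.558). For PEG3 the rise rested on AA replicate 2, since AA replicate 1 at 0.108 was near the control at 0.0666. The regions' median was -0.03 and that of all features 1.00. Among features with at least 3 HpaII tags in every HpaII library, the median was 0.03, and that of the 7 regions left was -0.15. At MEG3, AA replicate 1 at 0.307 was above the 0.115 that 3 tags in the control would give, and AA replicate 2 had no HpaII tag.

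Within 786, edgeR called 0 of 11 regions, with none at an unadjusted p under 0.05, against 0.0703% of all features. DESeq2 called 0, again with none at an unadjusted p under 0.05, against 0.274% of features called. In edgeR 2839 of the 29873 features had an unadjusted p under 0.05. The smallest edgeR p-values were those of PEG10 (adjusted p = 0.552), MEST (adjusted p = 0.661) and GRB10 (adjusted p = 0.701), all without an HpaII tag in the control. Their fitted log2 values of 9.97, 8.82 and 9.20 depend on the prior count and are no sizes. At PEG10 the AA ratios of 1.54 and 1.14 lay on either side of the 1.15 that 3 tags in the control would give, and their mean of 1.34 was under the upper limit of 1.43 for the control. The AA means of MEST (0.142) and GRB10 (1.05) were under the 0.208 and 1.54 that 3 tags would give. A rise to the AA means of MEST and GRB10 was therefore not detectable at this depth. At PEG10, AA replicate 1 (interval 1.12 to 2.14) was above the control's upper limit of 1.43 and AA replicate 2 under it, so a rise there was not settled.

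The difference between the AA effects of the lines was tested as an interaction. edgeR called 0 of 11 regions, with none at an unadjusted p under 0.05, against 0.0837% of all features. Of the 29873 features, 3195 had an unadjusted p under 0.05 in that fit. DESeq2 called 0 against 3.82% of all features, with PEG10 alone of the regions at an unadjusted p under 0.05. At least that share of features had an unadjusted p under 0.05 in DESeq2. The 3 smallest edgeR p-values were those of PEG10 (adjusted p = 0.487), MEST (adjusted p = 0.674) and PEG3 (-3.80 ± 2.87, adjusted p = 0.754), and the first 2 again rest on a control without HpaII tags.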

How the data were processed

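Per the labels' protocols, the authors digested DNA with HpaII or MspI, ligated adapters, released tags with EcoP15I, transcribed them in vitro and amplified the cDNA by PCR. The deposited files give, per library, the expected count of tags at each CCGG site, unnormalized as far as the files show. The submitters' processing notes name hg19. An aligner is not given in the sources. Of the listed sites of a library, 7.19% to 10.2% had counts that were not whole (tolerance 1e-06).

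Counts were summed over each of the 13 intervals and, elsewhere, over 5 kb windows, and rounded to whole numbers after summing. Features with at least 10 MspI tags in every MspI library and at least 10 HpaII tags in all were tested. edgeR 4.0.16 (R 4.3.3) fitted quasi-likelihood models over the 12 libraries with terms for DNA sample, enzyme, enzyme by line and enzyme by AA (or AA within each line, with their difference), TMM being computed within each enzyme. MspI libraries alone were fitted for the line. Residual degrees of freedom were 3 and 2 for these models and 4 for MspI. The spread was pooled over lines, and the lone control of a line was taken to vary as the AA samples do. The fit was tested on simulated data with 200 features changed 8-fold with AA and the same spread for every feature. At the common dispersion of these libraries (0.421) it returned the size of the changes but called none. At a dispersion of 0.105 it recovered 70% of them, with 5 false calls among 145. On the real counts the AA fit called 72 features, so the simulation does not stand for every feature. The other comparisons were not simulated. A region not called is therefore not shown to be unchanged. DESeq2 1.42.0 was an alternative. Ratios and figures were made in Python 3.11.15 (numpy 2.4.6, pandas 2.3.3, scipy 1.17.1, matplotlib 3.10.9).

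Every region is named with its level. Fitted values are given for called regions and for the 3 smallest p-values per comparison, other fitted values being chosen later. Sites are named for having at least 100 MspI tags (the 2 with most) or over 50% of a region's HpaII tags in a library with at least 20. The members and lists were chosen with earlier results of these data known. Exon and intron annotation of hg19 was not used here.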

Additional observations from a re-analysis of the deposited data

How the results depend on the processing

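Under the alternatives (no TMM, TMM across both enzymes, no or a stricter low count filter, 10 kb windows, thinning, HpaII alone, only sites with whole counts, no top site, AA-treated samples only for the line, DESeq2 and leaving out each DNA sample), the number of regions called by edgeR was 0 in every fit made. The MspI comparison was fitted only without TMM, with no low count filter, in 10 kb windows, over sites with whole counts, with DESeq2 and without each DNA sample. DESeq2 called 1 region for 786 versus 769, which was MEST. Leaving out a DNA sample gave 0 to 0 regions called in each comparison that could still be fitted; without a line's control, AA over both lines, AA in that line and the difference have no value. Calls over all features varied far more than those of regions: from 0 to 888 for AA over both lines (72 in the edgeR fit reported), 27 to 3860 for the lines (421), 0 to 3457 for AA in 769 (439), 3 to 317 for AA in 786 (21), 1 to 1140 for the difference (25) and 23 to 370 for MspI (66). Without the site with the most HpaII tags, the difference of AA effects changed sign for MEST (-0.66 ± 7274.78) and PEG3 (5.77 ± 11.82), both at an adjusted p of 1.00 in edgeR. The site left out held all HpaII tags of the 769 control at MEST and of the 786 control at PEG3. Neither value therefore gives a direction. Of 13 regions, 5 instead of 8 lay below the median of the dense windows in 769 when windows with at least 10 reference CCGG sites or 10 kb windows were the yardstick. In 786 it was 6 instead of 9 by the share of its sites that had an HpaII tag, and 8 to 11 when a DNA sample was left out (8 in each case in 769). With the replicate number as a replicate block, 0 regions were called in each of the 5 comparisons, while calls over all features rose to 163, 673, 1071, 236 and 368. The AA samples share a number only: their replicate differences correlated at -0.015 between lines over 29873 features. With 75 HpaII tags over all regions in the 786 control, depth limits every AA comparison in that line.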
